A study of Mus musculus with 9 samples.

Results

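Sorted cancer cells from mouse lung tumours that had kept 1 of their 2 Smarca4 alleles outside the reach of Cre were compared, across all genes, with cancer cells from tumours whose Smarca4 alleles were both wild type. The comparison used 6 of the 9 bulk RNA-seq libraries, chosen by genotype label. KPS-HET (Trp53fl/fl, Smarca4fl/+ and Rosa26LSL-TdTom among its alleles) gave 2 libraries, and KP (the same alleles with Smarca4+/+) gave 4. KPS, with Smarca4fl/fl, gave the other 3, which entered the fit for the estimate of spread and stand beside some results. Every mouse was on a mixed B6;129S2 background, and conditional loss of Trp53 and a TdTom reporter were common to all groups. Cre came from an adenovirus and was driven by the CCSP promoter of airway club cells, and the virus was instilled into the trachea. Cells were sorted from dissociated lungs of moribund mice, so the libraries show end-stage tumours and no early stage. The sources used here do not give the sort gate, ages or sexes, nor do they state that each library came from its own mouse. The p-values therefore reflect only how these libraries vary, which may be partly technical.

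Smarca4 encodes BRG1, 1 of the 2 alternative ATPase motors of BAF, the complex that slides and evicts nucleosomes at enhancers and promoters. The other motor, BRM, is encoded by Smarca2. In lung cancer SMARCA4 is often inactivated on both alleles, and heterozygous loss asks whether a reduced dose of the gene already shifts the programme of an epithelial tumour cell that normally carries alveolar and airway identity under factors such as Nkx2-1.

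Libraries held 22705446 and 12607471 estimated counts in KPS-HET, against 15275259 to 29231565 in KP. Levels are given as CPM, the counts scaled to library size, after TMM scaling, and 15663 of 23224 genes had enough counts to be tested. Both KPS-HET libraries were lung epithelial in the genes they expressed. Sftpc, surfactant protein C of alveolar type 2 cells, stood at 50641 and 30226 CPM in KPS-HET and at 39261 to 70280 CPM in KP. Nkx2-1, the lung lineage transcription factor, stood at 270 and 200 CPM in KPS-HET and at 231 to 246 CPM in KP. Epcam, an epithelial surface protein, stood at 622 and 879 CPM in KPS-HET and at 663 to 876 CPM in KP.

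The 2 KPS-HET libraries differed from each other in ways the genotype label does not explain. Xist, the RNA that silences an X chromosome, stood at 606 and 0.904 CPM in KPS-HET replicates 1 and 2. In KP it stood at 726 CPM in replicate 2 and at 0 to 0.756 CPM in the other libraries. Markers of macrophages summed to 2967 and 858 CPM in KPS-HET replicates 1 and 2, against 982 to 1861 CPM in KP. Both KPS-HET libraries have sample titles beginning with 67, as do KP replicates 3 and 4, while KP replicates 1 and 2 do not. What those numbers stand for is not given in the labels, so list counts within the 67 libraries are given below where they differ by 3 genes or more. The fit of those 4 libraries tested 14540 genes. At an unadjusted p below 0.05, 628 of them were higher and 582 lower in KPS-HET, 8.32% in all.

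Smarca4 mRNA, the check on the genotype, was lower in both KPS-HET libraries than in any KP library. It stood at 76.4 and 97.2 CPM in KPS-HET, at 55.5, 39.9 and 47.6 CPM in KPS and at 137, 124, 132 and 110 CPM in KP. The KPS-HET libraries thus lay between the other groups, with no overlap on either side. The fitted level in KPS-HET was 69.04% of that in KP (95% interval 52.9 to 90.1%), a log2 fold change of -0.53 ± 0.17 (SE). With edgeR's quasi-likelihood test the unadjusted p was 0.0111, and the Benjamini-Hochberg adjusted p over all genes was 0.974. Over the 6 libraries alone, an exact two-sided permutation test gave p = 0.0667, the smallest that 2 libraries against 4 allow. The fold change was -0.36 without KPS-HET replicate 1 and -0.72 without KPS-HET replicate 2. In KPS the level was 38.0% of that in KP (adjusted p = 0.00214), and KPS differed from KPS-HET by -0.86 (adjusted p = 0.0551). Counts cover the whole gene, so reads outside the floxed exons are included.

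Trp53, the tumour suppressor gene floxed in every mouse, overlapped between the groups. It stood at 6.51 and 9.80 CPM in KPS-HET and at 7.44 to 14.0 CPM in KP, a log2 fold change of -0.34 with a 95% interval of -1.26 to 0.59. The annotation places exons of another gene over those of Smarca2, so some of its reads may belong elsewhere.

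No gene passed the test between KPS-HET and KP. Of 15663 genes tested with edgeR, 0 (0%) had an adjusted p below 0.05, and the smallest adjusted p was 0.974. At an unadjusted p below 0.05 there were 627 genes (4.0%), 270 higher (1.72%) and 357 lower (2.28%) in KPS-HET. The split between directions turned with the scaling and the tool, to 387 higher and 213 lower with library totals in place of TMM. limma-voom called 0 genes, with 645 at an unadjusted p below 0.05, 366 higher and 279 lower. DESeq2 called 2, Blnk and Vps13c, and had 777 below 0.05 unadjusted. For scale, the same fit called 1134 genes (7.24%) for KPS against KP, of which 621 (3.96%) had the higher level in KPS and 513 (3.28%) the lower. With only 2 KPS libraries in the fit, 505 to 798 genes were still called between KPS and KP.

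**Figure D1:**
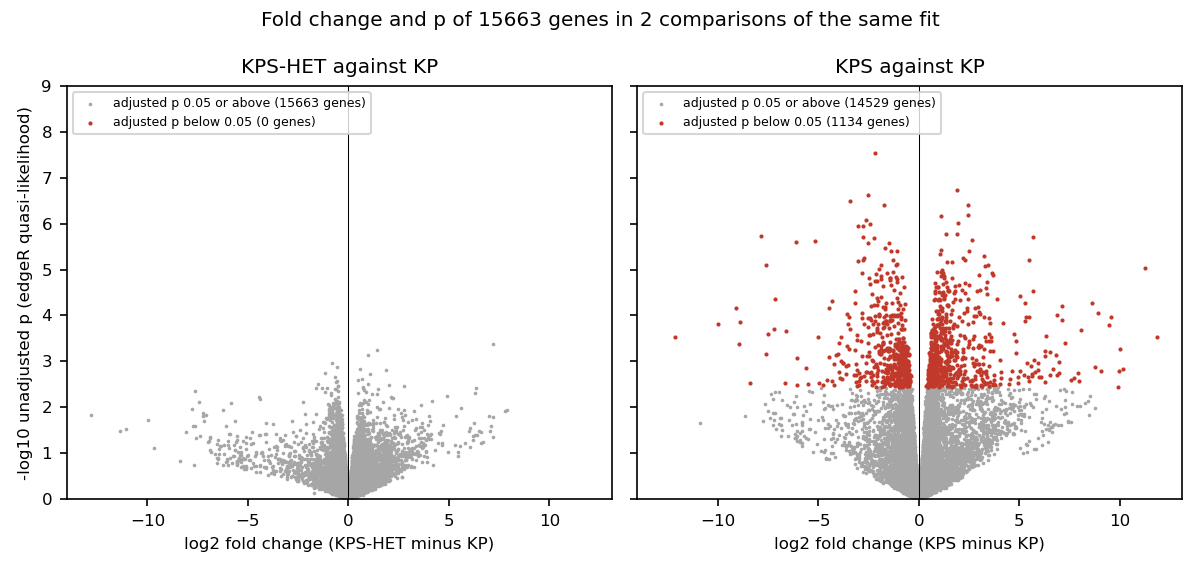
Log2 fold change (x axis) against the unadjusted p on a −log10 scale (y axis) for the 15663 genes tested, KPS-HET against KP on the left and KPS against KP on the right, with genes below an adjusted p of 0.05 coloured. No point is coloured on the left, where the smallest adjusted p is 0.974, and 1134 are coloured on the right.

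How small a change the libraries could bound depended on the level of the gene. The 95% interval of the fold change lay wholly within 2-fold in either direction for 8066 genes (51.5%). Among genes with a mean over 100 CPM it did so for 90.6%, and among those of 10 to 100 CPM for 77.7%. Among genes of 1 to 10 CPM it did so for 5.88%, and below 1 CPM for 0%. For abundant genes the data therefore bound the difference, and for scarce genes they do not. The median fold change over all genes was -0.01, and the libraries of KPS-HET and KP did not overlap for 2100 genes (13.4%).

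Taken as whole profiles, KPS-HET libraries were about as far from KP libraries as KP libraries were from each other. The root mean square log2 difference between a KPS-HET and a KP library ran from 0.937 to 1.25 over 8 pairs, with a median of 1.002. Between KP libraries it ran from 0.864 to 1.197 over 6 pairs, with a median of 1.048, and between the KPS-HET pair it was 1.07. From KPS libraries the KPS-HET libraries were 1.21 to 1.37 away over 6 pairs, with a median of 1.278. KP libraries were farther from KPS by the median, at 1.253 to 1.457 over 12 pairs, with a median of 1.361. On the first principal component, which held 32.4% of the variance, KPS-HET replicates 1 and 2 lay at -14.2 and -39.4, KPS at 71.8 to 89.3 and KP at -51.2 to -39.9.

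The subunits of the BAF complex around BRG1 mostly had narrow bounds on their difference. Of 25 subunits tested, 0 were called, and Smarca4 alone was below an unadjusted p of 0.05. For 20 of the 25 the 95% interval lay within 2-fold, and the median fold change was 0.03, beside -0.01 over all genes. Smarca2, the alternative ATPase, stood at 32.6 and 41.9 CPM in KPS-HET and at 29.8, 53.2, 48.0 and 26.7 CPM in KP. Its libraries overlapped, with an interval of -0.70 to 0.53 around -0.08. Smarcb1, a core subunit, stood at 70.2 and 64.4 CPM in KPS-HET and at 59.2 to 82.2 CPM in KP. Arid1a, the DNA-binding subunit of canonical BAF, stood at 86.4 and 66.5 CPM in KPS-HET and at 46.6 to 76.9 CPM in KP. Pbrm1, which defines the PBAF form, stood at 208 and 202 CPM in KPS-HET and at 179 to 204 CPM in KP. Actl6b, the subunit of the neuronal BAF form, was at 0 in all 6 libraries.

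**Figure D2:**
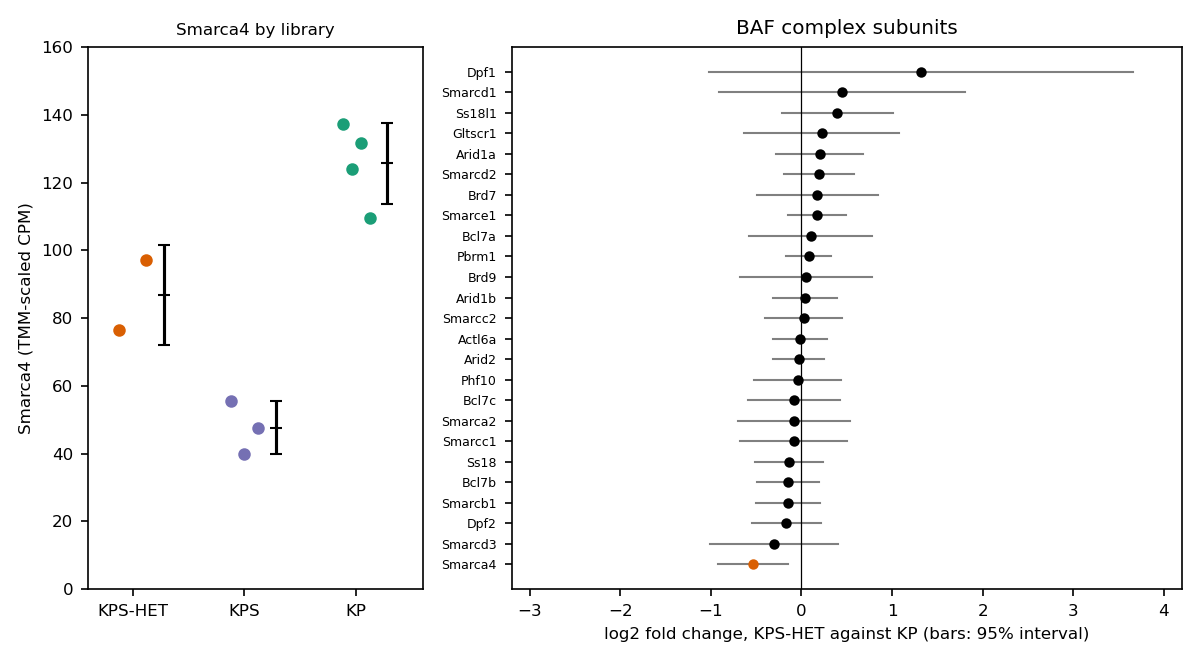
Smarca4 level in each library (left, CPM, with bars for the mean and SD of each group) and the log2 fold change of KPS-HET against KP with its 95% interval for the 25 BAF subunits tested (right). Smarca4, at 76.4 and 97.2 CPM in KPS-HET and 110 to 137 CPM in KP, is the only subunit whose interval leaves out 0.

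Among 45 other chromatin remodellers and Polycomb genes, 0 were called, 0 were higher and 2 were lower at an unadjusted p below 0.05. Their median fold change was 0.00, and within the 67 libraries 3 of 44 were higher and 2 lower. Chd3, a motor of the NuRD complex, stood at 34.0 and 36.1 CPM in KPS-HET and at 42.3 to 48.2 CPM in KP (-0.38 ± 0.14). Bmi1, a Polycomb repressor, stood at 55.6 and 48.1 CPM in KPS-HET and at 54.6 to 81.6 CPM in KP, and its libraries overlapped.

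Lung identity lists held no called gene. Of 23 lung epithelial transcription factors, 0 were called or below an unadjusted p of 0.05, and 17 had an interval within 2-fold. Nkx2-1 had an interval of -0.43 to 0.35 around -0.04. Cebpa, which maintains surfactant gene expression, stood at 80.7 and 60.1 CPM in KPS-HET and at 83.6 to 94.7 CPM in KP, an interval of -0.72 to 0.01. In KPS the same fit gave -0.68 for Nkx2-1 (adjusted p = 0.0309) and -0.65 for Cebpa (adjusted p = 0.0276) against the same KP libraries.

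Of 20 alveolar type 2 markers 0 were called, yet 19 had a fold change below 0 and the median was -0.31, beside -0.01 over all genes. Their summed level was 88830 and 57068 CPM in KPS-HET and 76167 to 122160 CPM in KP, so 1 KPS-HET library lay within the KP range and 1 below it. The median was -0.56 without KPS-HET replicate 1 and -0.09 without KPS-HET replicate 2. Sftpb, surfactant protein B, stood at 3917 and 3816 CPM in KPS-HET and at 3280 to 5527 CPM in KP. In sorted bulk samples, fewer cells of a type and less RNA per cell cannot be told apart. Of 17 alveolar type 1 markers 0 were called, with a median of -0.10. Ager, a receptor of the type 1 cell membrane, stood at 2096 and 1293 CPM in KPS-HET and at 1242 to 2175 CPM in KP.

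Airway markers gave no calls either. Of 20 club cell markers 1 was below an unadjusted p of 0.05, Aldh1a1, a retinaldehyde dehydrogenase, at 106 and 136 CPM in KPS-HET and 72.9 to 97.7 CPM in KP. Scgb1a1, the club cell secretory protein whose promoter drove Cre, stood at 5497 and 3982 CPM in KPS-HET and at 2842 to 4360 CPM in KP. Of 12 ciliated cell markers 0 were below 0.05 unadjusted, with 11 fold changes above 0 and a median of 0.47. Foxj1, the regulator of motile cilia, stood at 27.4 and 30.8 CPM in KPS-HET and at 27.9, 37.04, 9.36 and 10.4 CPM in KP replicates 1 to 4. Within the 4 libraries of the 67 range, 7 of the 12 ciliated markers were higher at an unadjusted p below 0.05, with a median of 1.59. In that fit 0 genes were called over the table. Of all 14540 genes it tested, 628 were higher below 0.05 unadjusted, and 8.32% were below it in either direction.

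**Figure D3:**
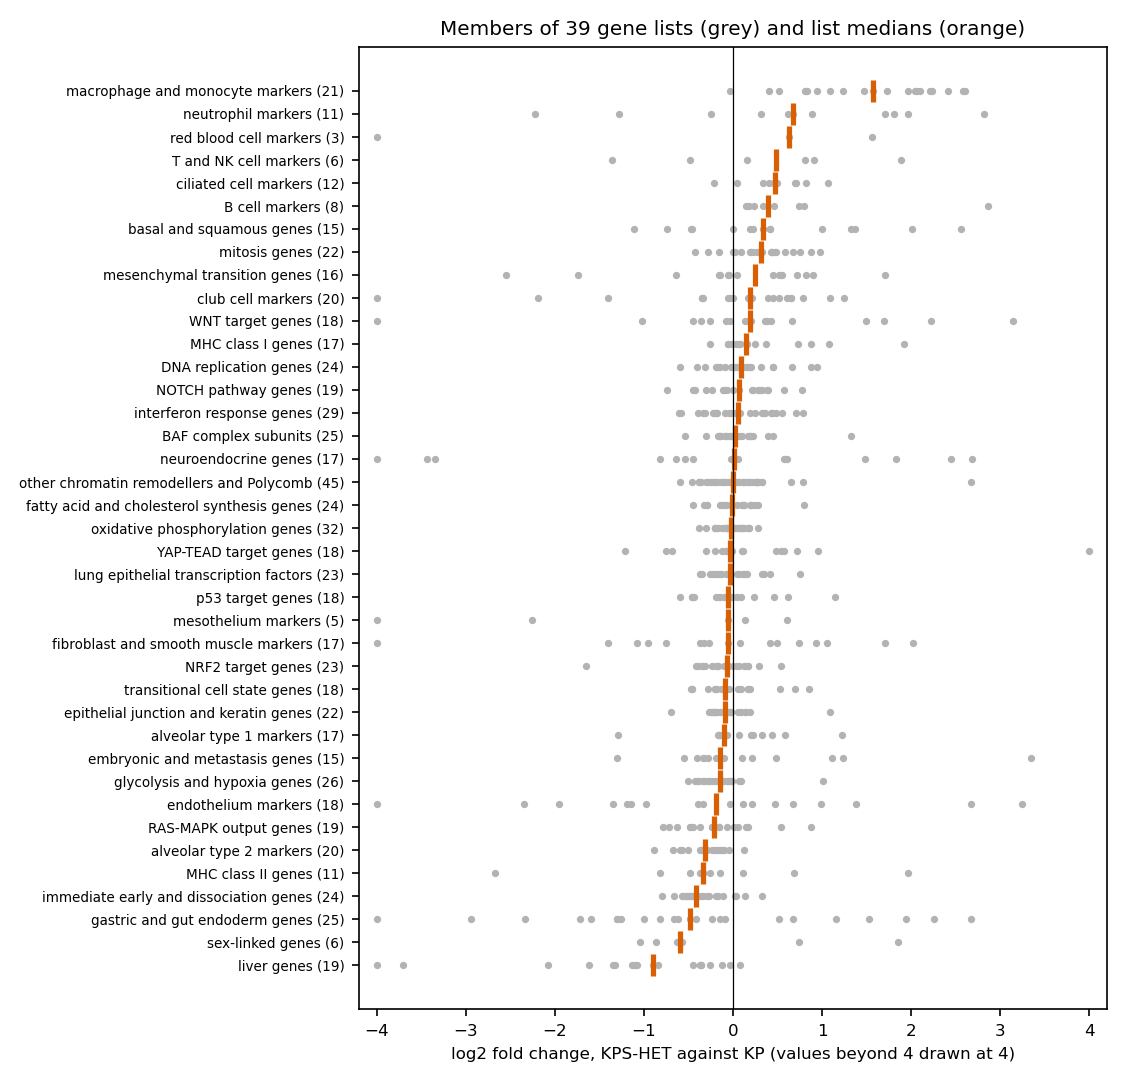
Fold changes of KPS-HET against KP on the log2 scale (x axis) for the tested members of each gene list (y axis), 1 point a gene, with the list median marked and values beyond 4 drawn at 4. Points of most lists lie on both sides of 0, while 19 of 20 alveolar type 2 markers, 18 of 19 liver genes, 23 of 26 glycolysis and hypoxia genes and 20 of 24 immediate early genes lie below it. Above it lie 20 of 21 macrophage, 11 of 12 ciliated and 8 of 8 B cell markers.

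Gut and liver genes are programmes that lung adenocarcinoma cells can take up as lung identity weakens. Of 25 gastric and gut endoderm genes 0 were called, and at an unadjusted p below 0.05 there were 3 higher and 1 lower. Tff2, a trefoil peptide of stomach mucus, stood at 1.41 and 1.58 CPM in KPS-HET and at 0.0574 to 0.542 CPM in KP. Anxa10, an annexin of gastric epithelium, stood at 83.2 and 102 CPM in KPS-HET and at 11.0, 22.4, 56.3 and 38.97 CPM in KP. Fabp1, a fatty acid carrier of liver and gut, stood at 5.56 and 2.64 CPM in KPS-HET and at 0.280 to 1.95 CPM in KP. All 3 were above every KP library, and the list median was -0.48. Within the 67 libraries 1 of 22 gut genes tested was higher and 5 were lower at an unadjusted p below 0.05.

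Hnf4a, a transcription factor of liver and gut epithelium, was the lower member. It stood at 27.2 and 49.6 CPM in KPS-HET and at 93.5, 59.4, 138 and 88.6 CPM in KP, with no overlap. The log2 fold change was -1.31 ± 0.35 (edgeR, unadjusted p = 0.00389, adjusted p = 0.974). Of 19 liver genes tested 2 were below an unadjusted p of 0.05, both lower, and 18 had a fold change below 0, with a median of -0.90. The median was -0.55 without KPS-HET replicate 1 and -1.49 without KPS-HET replicate 2. Within the 67 libraries 5 of 19 were lower, with a median of -1.36. Trf, which encodes the iron carrier transferrin, stood at 2705 and 3053 CPM in KPS-HET, at 717, 559 and 617 CPM in KPS and at 5109, 5432, 7270 and 2811 CPM in KP. KPS-HET overlapped KP through KP replicate 4, and KPS lay below both (adjusted p = 0.0198 against KPS-HET). Ahsg and Fga, secreted liver proteins, were high in KP replicate 3, at 15.6 and 24.6 CPM. In KPS-HET they stood at 0.0428 and 0.226 CPM and at 0.128 and 1.13 CPM.

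The 15 genes with the smallest p in each direction, among those averaging 5 CPM or more and not overlapping, all had an adjusted p of 0.974, so they rank the table and do not form a set of changed genes. Of those higher in KPS-HET, Vps13c, a lipid transfer protein at organelle contacts, had the smallest p. It stood at 15.8 and 11.0 CPM in KPS-HET, at 15.5, 14.3 and 14.6 CPM in KPS and at 4.98, 6.44, 4.53 and 3.92 CPM in KP. The log2 fold change was 1.44 ± 0.29 (edgeR, unadjusted p = 5.59e-04; DESeq2, adjusted p = 0.0449). Ino80c, a subunit of the INO80 chromatin remodeller, stood at 46.7 and 50.5 CPM in KPS-HET, at 55.5 to 58.7 CPM in KPS and at 31.6, 33.2, 35.0 and 31.3 CPM in KP (0.57 ± 0.13). Pitpnm3, a membrane protein of the phosphatidylinositol transfer family, stood at 33.2 and 50.8 CPM in KPS-HET and at 16.2 to 22.1 CPM in KP. Il18, an inflammasome cytokine, stood at 16.3 and 25.5 CPM in KPS-HET, at 31.6 to 55.7 CPM in KPS and at 6.26 to 13.7 CPM in KP. Vps13c, Ino80c, Pitpnm3 and Il18 were called between KPS and KP, with fold changes of 1.58, 0.80, 1.36 and 2.30. Mif4gd (0.83) and Sh3pxd2b (1.07), an adaptor of invasive membrane protrusions, were called there too. Both comparisons use the same 4 KP libraries, so a low KP level enters both.

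Some genes of this group were high in KPS-HET and not in KPS. Tead1, the DNA-binding partner of YAP, stood at 33.6 and 35.2 CPM in KPS-HET, at 19.9, 13.6 and 19.3 CPM in KPS and at 17.6, 19.3, 16.2 and 18.1 CPM in KP. It was the highest in the KPS-HET pair with a narrow range elsewhere, a log2 fold change of 0.95 ± 0.20 against KP. KPS minus KPS-HET was -0.97 (adjusted p = 0.0625, not called), and the KPS-HET libraries by which Tead1 was chosen enter that comparison too. Aqp4, a water channel, stood at 13.0 and 11.7 CPM in KPS-HET, at 1.55 to 4.65 CPM in KPS and at 3.21 to 3.55 CPM in KP (1.88 ± 0.44 against KP). Atxn1, a transcriptional corepressor, stood at 38.0 and 28.9 CPM in KPS-HET, at 17.5 to 22.5 CPM in KPS and at 19.3 to 21.7 CPM in KP. The rest of the 15 higher in KPS-HET, at whatever level in KPS, were Fbxo32, Mif4gd, Wfdc1, Larp1b, Tbx1, Sh3pxd2b, Hnrpdl and Cep55. Their fold changes in KPS-HET ran from 0.49 for Hnrpdl and Mif4gd to 1.48 for Tbx1, a T-box transcription factor.

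**Figure D4:**
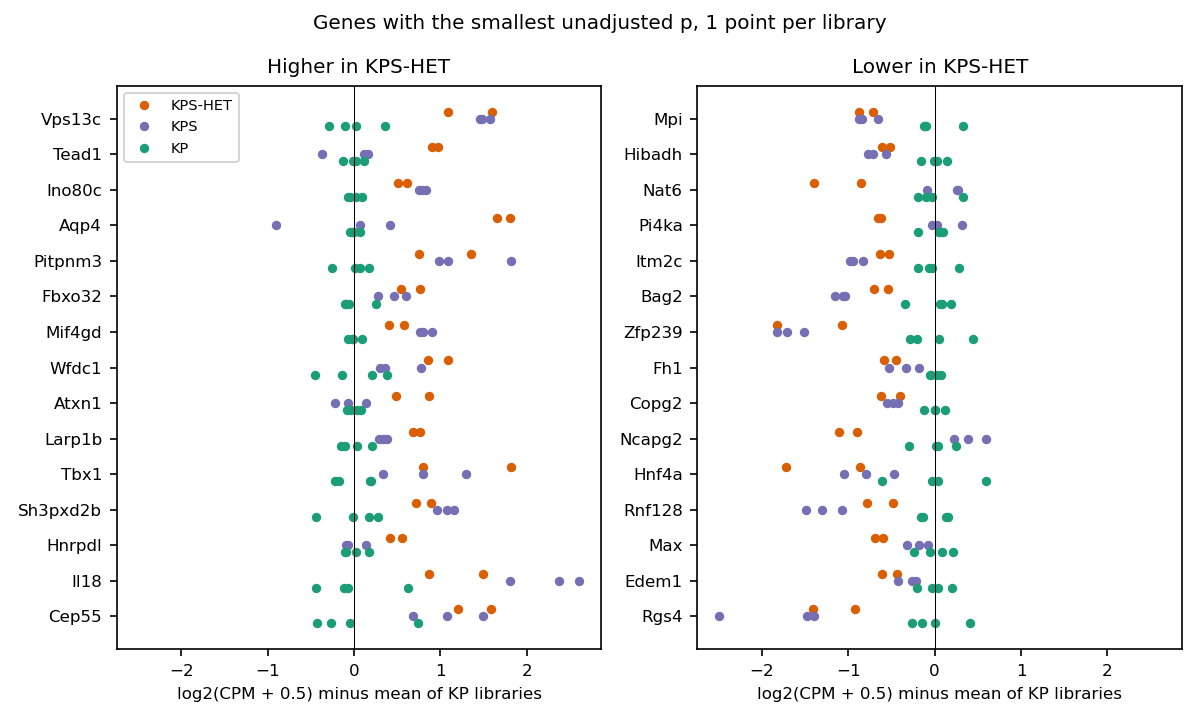
Level in every library as log2(CPM + 0.5) minus the mean of the KP libraries (x axis), 1 point a library, of the 15 genes with the smallest p among those higher (left) and lower (right) in KPS-HET than in KP, with KPS-HET above KPS and KP. KPS-HET points lie outside the KP points for each gene, as the choice of genes requires, and the KPS points lie near KPS-HET for Vps13c and Mpi and near KP for Tead1 and Aqp4.

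Of the genes lower in KPS-HET, Mpi, the mannose phosphate isomerase that feeds protein glycosylation, had the smallest p. It stood at 31.2 and 34.9 CPM in KPS-HET, at 36.6, 31.9 and 31.1 CPM in KPS and at 54.0, 53.6, 72.4 and 53.1 CPM in KP, a log2 fold change of -0.82 ± 0.18. Hibadh, a mitochondrial enzyme of valine breakdown, stood at 180 and 169 CPM in KPS-HET, at 151 to 175 CPM in KPS and at 231 to 285 CPM in KP (-0.57 ± 0.13). Rnf128, a ubiquitin ligase, stood at 64.5 and 79.5 CPM in KPS-HET, at 39.1 to 52.4 CPM in KPS and at 99.6 to 124 CPM in KP. Rgs4, which shortens signalling by G protein-coupled receptors, stood at 51.7 and 36.9 CPM in KPS-HET, at 17.1 to 37.002 CPM in KPS and at 82.1 to 131 CPM in KP (-1.17 ± 0.32). For Rnf128 the KPS libraries lay beyond KPS-HET, and all 4 genes were called between KPS and KP. Bag2, a chaperone cofactor, Itm2c and Copg2, a coat protein subunit, were called there too, with fold changes of -1.11, -0.93 and -0.49 in KPS and -0.63, -0.59 and -0.52 in KPS-HET. Zfp239, a zinc finger gene, was called there as well (-1.84 in KPS, -1.52 in KPS-HET). These genes were chosen for KP libraries above both KPS-HET libraries, and the same KP libraries enter the comparison with KPS. A high KP level therefore enters both, and the calls are no independent support. Over all genes 513 (3.28%) were called lower in KPS than in KP.

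Pi4ka, a phosphatidylinositol kinase of the plasma membrane, stood at 32.4 and 33.2 CPM in KPS-HET, at 50.3 to 64.1 CPM in KPS and at 44.9 to 55.0 CPM in KP. Ncapg2, a condensin subunit, stood at 5.48 and 4.67 CPM in KPS-HET, at 12.5 to 16.4 CPM in KPS and at 8.57 to 12.7 CPM in KP. For both genes the KPS-HET pair was below every other library. KPS minus KPS-HET was 0.76 (adjusted p = 0.0625) for Pi4ka and 1.49 (adjusted p = 0.0552) for Ncapg2, and neither was called. Both genes were chosen for low KPS-HET libraries, which also enter that comparison, so it is no independent support. Max, the partner of MYC, stood at 23.9 and 22.5 CPM in KPS-HET and at 30.8 to 42.5 CPM in KP. Fh1, the fumarase of the citric acid cycle, stood at 63.5 and 57.7 CPM in KPS-HET and at 83.7 to 91.1 CPM in KP. Edem1, a factor of endoplasmic reticulum quality control, stood at 73.3 and 83.1 CPM in KPS-HET and at 97.3 to 129 CPM in KP. Nat6 completed the 15 genes lower in KPS-HET, together with Hnf4a. Nat6, Copg2, Pi4ka and Mif4gd have exons that overlap another gene.

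By the same level and overlap limits, the largest fold changes came with wide intervals. Krt6a, a keratin of stressed and squamous epithelium, stood at 25.6 and 5.73 CPM in KPS-HET and at 1.33 to 3.74 CPM in KP (2.56, interval 0.14 to 4.98). Anxa8, an annexin of squamous epithelium, stood at 71.0 and 78.7 CPM in KPS-HET, at 54.1, 267 and 348 CPM in KPS and at 9.96, 12.8, 31.9 and 32.0 CPM in KP. Its KPS-HET pair lay above every KP library, with a log2 fold change of 1.78 ± 0.65. Col23a1, a transmembrane collagen, stood at 31.2 and 11.0 CPM in KPS-HET and at 1.84 to 9.15 CPM in KP. Six4, a homeobox transcription factor, stood at 11.3 and 11.8 CPM in KPS-HET, at 1.02, 0.534 and 1.89 CPM in KPS and at 2.30 to 4.82 CPM in KP. KPS was lower than KPS-HET for Six4 by 3.33 on the log2 scale (fold change -3.33, adjusted p = 0.0343). The choice of Six4 for its high KPS-HET pair favours such a difference.

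The largest folds downwards rested on high KP libraries. Adh1, an alcohol dehydrogenase, had 0 counts in both KPS-HET libraries and stood at 45.8, 0.422, 0.517 and 1.96 CPM in KP, at least 148.7-fold lower in KPS-HET with 3 counts in the group as the floor, and at least 11.8-fold lower without KP replicate 1. Rasa4, a RAS GTPase-activating protein, stood at 6.76 and 5.13 CPM in KPS-HET and at 7.81, 8.07, 79.8 and 18.9 CPM in KP. Tox3, a nuclear protein of the HMG box family, stood at 1.33 and 2.26 CPM in KPS-HET and at 3.47, 5.18, 12.8 and 13.0 CPM in KP (-2.27 ± 0.68). The remaining 2 were Fga, above, and Abhd14b, whose exons overlap another gene.

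Signalling lists were mixed in direction. In the RAS-MAPK output list 2 of 19 genes were below an unadjusted p of 0.05, both lower, and the list median was -0.22. Dusp6, a phosphatase that ERK induces against itself, stood at 309 and 323 CPM in KPS-HET and at 420, 308, 621 and 602 CPM in KP, so it overlapped through KP replicate 2. Dusp5, an ERK phosphatase of the nucleus, stood at 17.0 and 25.6 CPM in KPS-HET and at 23.9 to 49.0 CPM in KP. Of 18 YAP-TEAD genes Tead1 was higher and Cyr61, a matricellular target, was lower, at 153 and 206 CPM in KPS-HET and 246 to 406 CPM in KP. Ctgf, another target, stood at 119 and 123 CPM in KPS-HET, within the KP range of 61.8 to 151 CPM.

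In the WNT list 2 of 18 genes were higher at an unadjusted p below 0.05 and 0 lower. Lgr4, an R-spondin receptor, stood at 5.52 and 4.37 CPM in KPS-HET, at 9.20, 15.1 and 24.3 CPM in KPS and at 0.723 to 2.52 CPM in KP. Wif1, a secreted WNT inhibitor, stood at 6.59 and 2.64 CPM in KPS-HET, at 4.85 to 5.73 CPM in KPS and at 0.420 to 1.87 CPM in KP. Both were called between KPS and KP (adjusted p = 0.00483 and 0.0394), and a receptor that boosts WNT and an inhibitor of it were both high. The same KP libraries enter both comparisons, so a low KP level enters both here too. Of 19 NOTCH genes only Numb, an inhibitor of the pathway, was below 0.05, at 16.0 and 17.8 CPM in KPS-HET and 21.4 to 33.8 CPM in KP. Of 18 p53 targets Pmaip1 was higher, through KPS-HET replicate 2, and Btg2 lower. Pmaip1, which encodes the cell death protein NOXA, stood at 48.7 and 184 CPM in KPS-HET and at 32.1 to 69.1 CPM in KP. Cdkn1a, the p21 cell cycle inhibitor, stood at 123 and 138 CPM in KPS-HET and at 147 to 216 CPM in KP.

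Immediate early genes, which cells switch on within minutes of a stimulus or of tissue dissociation, had more members below an unadjusted p of 0.05 than any other list. Of 24 tested 0 were called, 7 were lower and 0 higher at an unadjusted p below 0.05, where 2.28% of all genes were lower, and 20 had a fold change below 0, with a median of -0.42. Their summed level was 8729 and 7057 CPM in KPS-HET and 8823 to 12386 CPM in KP. Egr2, a zinc finger factor, stood at 32.6 and 24.3 CPM in KPS-HET, at 49.0 to 59.8 CPM in KPS and at 36.6 to 46.6 CPM in KP (-0.57 ± 0.18). Btg2, an antiproliferative gene that is also a p53 target, stood at 433 and 381 CPM in KPS-HET and at 463 to 611 CPM in KP. Dnajb1, a heat shock cochaperone, stood at 173 and 138 CPM in KPS-HET, at 78.4 to 107 CPM in KPS and at 196 to 270 CPM in KP. The list median was -0.46 without KPS-HET replicate 1 and -0.35 without KPS-HET replicate 2. The count of lower genes was 11 within the 67 libraries, where 582 of all 14540 genes tested were lower at an unadjusted p below 0.05. The list follows handling as well as signalling, and the part of handling was not tested.

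Of the metabolic and proliferation lists, only oxidative phosphorylation had every gene bounded within 2-fold. All 32 oxidative phosphorylation genes had an interval within 2-fold, with a median of -0.02. Sdha, a subunit of succinate dehydrogenase, was the only one below 0.05 unadjusted, at 273 and 243 CPM in KPS-HET and 324 to 346 CPM in KP. Of 26 glycolysis and hypoxia genes 23 had a fold change below 0, with a median of -0.15 and 2 below 0.05 unadjusted. These were Tpi1, triose phosphate isomerase, at 567 and 690 CPM in KPS-HET and 709 to 902 CPM in KP, and P4ha1, a prolyl hydroxylase of collagen, at 83.4 and 82.2 CPM in KPS-HET and 95.2 to 152 CPM in KP. Of 24 fatty acid and cholesterol synthesis genes Cyp51, a demethylase of cholesterol synthesis, was higher, at 48.9 and 43.6 CPM in KPS-HET and 23.6 to 32.3 CPM in KP. Of 23 NRF2 targets 0 were below 0.05 unadjusted, and 4 were lower within the 67 libraries. Over all 14540 genes tested within the 67 libraries, 582 were lower and 628 higher at an unadjusted p below 0.05. Of 22 mitosis genes 0 were below 0.05 unadjusted, with a median of 0.31 and only 1 interval within 2-fold. The mitosis median was -0.29 without KPS-HET replicate 1 and 0.78 without KPS-HET replicate 2, and within the 67 libraries it was 1.13, with 9 of 22 genes higher at an unadjusted p below 0.05. Of 24 DNA replication genes Cdt1, the origin licensing factor, was lower. Mki67, the proliferation marker, stood at 30.3 and 13.1 CPM in KPS-HET and at 8.33 to 40.1 CPM in KP.

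Cell state lists that describe dedifferentiated tumours gave few low p-values. Of 15 basal and squamous genes Krt6a was the only one below 0.05 unadjusted, and of 22 junction and keratin genes only Dsc2, a desmosomal cadherin, at 24.1 and 31.4 CPM in KPS-HET and 26.3 to 59.5 CPM in KP. Of 16 mesenchymal transition, 18 transitional state and 17 neuroendocrine genes 0 were, and 3 of the transitional genes were lower within the 67 libraries. The neuroendocrine median was 0.01 in KPS-HET and 2.05 in KPS against the same KP libraries. In KPS-HET the fold changes of these genes ran from -4.18 to 2.68. For 0 of the 17 did the interval lie within 2-fold, so the median does not show sameness with KP. Of 15 embryonic and metastasis genes 2 were higher besides Hnf4a, which was lower. Runx2, a factor of bone development, stood at 11.8 and 17.7 CPM in KPS-HET, at 11.5 to 32.5 CPM in KPS and at 3.91 to 10.4 CPM in KP. Igf2, a fetal growth factor, stood at 5.26 and 1.13 CPM in KPS-HET and at 0 to 0.574 CPM in KP.

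Of 21 macrophage and monocyte markers 3 were higher at an unadjusted p below 0.05, Mpeg1, Ear2 and Emr1, and none was at 0 in all 6 libraries. Ear2, a secreted ribonuclease of alveolar macrophages, stood at 124 and 9.50 CPM in KPS-HET and at 3.01 to 20.5 CPM in KP. Mpeg1, a pore-forming protein, stood at 33.9 and 2.79 CPM in KPS-HET and at 2.53 to 4.86 CPM in KP. KPS-HET replicate 1 was high and replicate 2 within the KP range or near it. The list median was 1.58, -0.79 without KPS-HET replicate 1 and 2.47 without KPS-HET replicate 2. In a fit that held the macrophage level as a covariate, added once the data had been seen, 0 genes were called between KPS-HET and KP and 581 were below 0.05 unadjusted.

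Of 11 neutrophil markers only Ltf, lactoferrin, which airway glands also secrete, was below 0.05 unadjusted, at 413 and 2992 CPM in KPS-HET and 93.6 to 436 CPM in KP. Neutrophil markers summed to 458 and 3041 CPM in KPS-HET and to 138 to 455 CPM in KP, with Ltf as the largest part. T and NK cell markers summed to 9.84 and 5.43 CPM in KPS-HET and 4.16 to 7.81 CPM in KP, with Cd3e, Nkg7 and Ncr1 at 0. B cell markers summed to 28.3 and 24.4 CPM in KPS-HET and 16.0 to 21.1 CPM in KP, both KPS-HET libraries above every KP library, with Ms4a1, Pax5 and Blk at 0. Endothelium markers summed to 132 and 101 CPM in KPS-HET and 84.3 to 133 CPM in KP, and Erg, an endothelial transcription factor, had 0 counts in KPS-HET and 0 to 0.490 CPM in KP. Fibroblast and smooth muscle markers summed to 250 and 113 CPM in KPS-HET and 104 to 312 CPM in KP, with Cnn1 and Thy1 at 0. Mesothelium markers summed to 963 and 1586 CPM in KPS-HET and 830 to 1492 CPM in KP, with Wt1 and Bnc1 at 0. Red blood cell markers, only 3 genes tested, summed to 13.4 and 27.2 CPM in KPS-HET and 5.30 to 12.7 CPM in KP, again with both KPS-HET libraries higher. Of the 3, 2 had a fold change above 0. The other, Hba-a2, was below it, at 0 in KPS-HET and 4.65 CPM in KP replicate 4. By gene, 3 of 8 B cell markers and 0 of 3 red blood cell markers did not overlap, where 13.4% of all genes did not. The part of these cells in the results above was not tested.

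Genes of immune recognition gave no calls. Of 29 interferon response and 17 MHC class I genes 0 were below 0.05 unadjusted, with medians of 0.06 and 0.15. Of 11 MHC class II genes Ciita, the transactivator of the class, was lower, at 19.4 and 18.7 CPM in KPS-HET, 8.42 to 20.7 CPM in KPS and 23.6 to 40.2 CPM in KP. A fit with the level of Y-linked genes as a term was added once the data had been seen. There 5 of the 11 were lower and 0 higher at an unadjusted p below 0.05, with a median of -0.50. Over all genes in that fit 305 of 15663 were lower at that p. In 3 other fits 0 class II genes were lower at that p. Their medians were -0.00047 with the title number range as a block, -0.03 within the 67 libraries and -0.40 with the macrophage term. The class II median was -0.34 in the main fit, -0.70 without KPS-HET replicate 1 and -0.04 without KPS-HET replicate 2.

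The genes that differed most between KPS and KP show where KPS-HET stood on the changes seen with both alleles floxed. These 10 genes were chosen after their values were seen, as the 5 highest and 5 lowest called fold changes among genes averaging 5 CPM or more whose KPS and KP libraries did not overlap. The KPS libraries that set the choice also enter the comparison with KPS-HET. Its p-values for these genes are therefore partly built in and are no independent support. Reg1, Reg3b and Chgb passed the count filter only through KPS. Reg1 and Reg3b, lectins that injured gut and pancreas secrete, had 0 counts in both KPS-HET libraries and in every KP library. In KPS they stood at 3.497, 43.0 and 18.1 CPM and at 9.36, 14.2 and 18.99 CPM, and Reg3b differed between KPS and KPS-HET (adjusted p = 0.0253). Chgb, a granin of neuroendocrine granules, had 0 counts in KPS-HET, 1.68, 23.1 and 22.9 CPM in KPS and at most 0.230 CPM in KP. F5, a coagulation factor, stood at 1.198 and 3.92 CPM in KPS-HET, at 16.2 to 57.5 CPM in KPS and at 0 to 1.95 CPM in KP. Ppyr1, a pancreatic polypeptide receptor, stood at 0.942 and 2.04 CPM in KPS-HET, at 4.49 to 34.7 CPM in KPS and at 0 to 1.03 CPM in KP.

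The genes at or near 0 in KPS were still present in both KPS-HET libraries. Habp2, a hyaluronan-binding serine protease, stood at 31.5 and 26.5 CPM in KPS-HET, at 0 to 0.441 CPM in KPS and at 19.996 to 63.6 CPM in KP. Clstn3, a calsyntenin, stood at 14.0 and 13.6 CPM in KPS-HET, at 0 to 0.165 CPM in KPS and at 11.6 to 50.7 CPM in KP. KPS-HET lay within the KP range for both, and KPS differed from KPS-HET by -7.26 for Habp2 (adjusted p = 0.0141) and -6.90 for Clstn3 (adjusted p = 0.0118). Cyp2c68, a cytochrome P450, stood at 5.69 and 14.8 CPM in KPS-HET, at 0 in KPS and at 4.64 to 69.6 CPM in KP. Gpr128, an orphan adhesion receptor, stood at 15.9 and 8.97 CPM in KPS-HET, at 0 to 0.388 CPM in KPS and at 6.32 to 61.6 CPM in KP. Tmem27, a collectrin of epithelial membranes, stood at 8.52 and 14.8 CPM in KPS-HET, at 0 to 0.716 CPM in KPS and at 10.6 to 59.1 CPM in KP. KPS and KPS-HET differed for 146 genes in all (0.932%), and for 1 gene without KPS-HET replicate 1 and 15 without KPS-HET replicate 2.

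**Figure D5:**
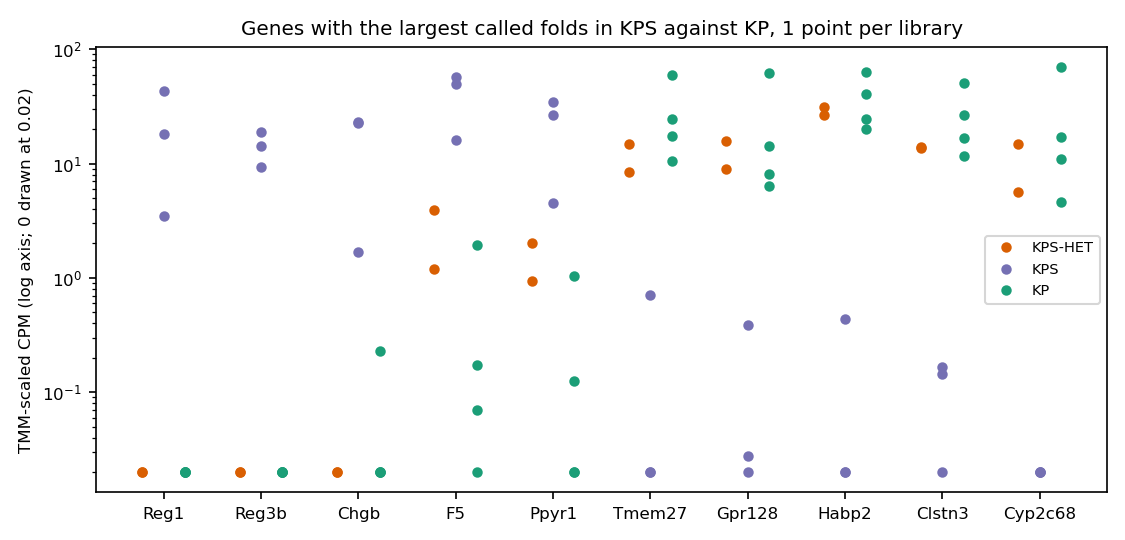
Level in every library (TMM-scaled CPM, log axis, with 0 drawn at the bottom) of the 10 genes with the most extreme called fold changes between KPS and KP among those averaging 5 CPM or more without overlap, in the order KPS-HET, KPS, KP. Reg1, Reg3b and Chgb are at 0 in KPS-HET, and Habp2 and Clstn3, at 13.6 to 31.5 CPM in KPS-HET, lie within the KP range and above every KPS library.

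Blnk, an adaptor of B cell receptor signalling, was below the level set for naming genes and was singled out after its values were seen, because DESeq2 called it (adjusted p = 0.0449). It stood at 0.556 and 1.13 CPM in KPS-HET and at 2.57 to 3.03 CPM in KPS, and had 0 counts in every KP library. With 3 counts in KP as the floor it was at least 22.1-fold higher in KPS-HET, and edgeR gave an adjusted p of 0.974. That floor covers counting error only and leaves out the spread between libraries.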

How the data were processed

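The values are expected counts per gene, which the authors deposited unscaled. The mouse build was mm9 and the tools were Bowtie 1.2.3 and RSEM 1.3.1, per the submitters' processing notes. The sources used here give no annotation, strand setting or filter, so reads of overlapping genes and near-identical paralogs are uncertain. Of 84 named genes, 13 overlap an exon of another gene in GRCm38, another build, used only for that. They are Abhd14b, Ciita, Copg2, Cyp51, Dusp5, Habp2, Igf2, Mif4gd, Nat6, Pi4ka, Runx2, Smarca2 and Tpi1. The table has 25 dates in place of symbols, none named, and 14 tested genes share all values with another.

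Counts were rounded (by at most 0.5). filterByExpr (minimum count 10, minimum total 15) removed 7561 genes. The test was edgeR 4.0.16's quasi-likelihood F test in R 4.3.3, robust, with TMM scaling and a coefficient for each group, fitted over all 9 libraries. It left 6 residual degrees of freedom, and the common biological coefficient of variation was 0.430. Tests were two-sided, adjusted by Benjamini-Hochberg over all tested genes, and the threshold was 0.05. Every adjusted p comes from it unless another tool is named. A gene is called below that threshold. Intervals (95%) use the test's own degrees of freedom. For 24 genes none could be computed, and these count as not within 2-fold. Floors of 3 counts over a group (0.0819 CPM in KPS-HET, 0.0382 CPM in KP) cover counting error only. Smarca4 was also tested with an exact permutation over libraries. The code was tested on simulated data.

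Groups follow the genotype label, and replicates were numbered in sample order. The members and the 39 gene lists were chosen with earlier results of these data known. Besides the lists named in the report, sex-linked genes were read. Named genes were Smarca4, Trp53 and Smarca2, the 15 smallest p and 5 largest folds in each direction (mean of 5 CPM or more, groups not overlapping, no predicted gene models), up to 3 genes a list by smallest p, and defining markers. An allele that all groups share is not reported here. Alternatives were DESeq2 1.42.0, limma-voom (limma 3.58.1), other scalings and count filters, the 6 libraries alone, each library left out, and the title number range. Fits with a Y-linked term and with a macrophage term were added after the data were seen.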

Additional observations from a re-analysis of the deposited data

Results flagged for a closer look

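In the 4 KP libraries, 7 of the 74 named genes had 1 library far from the other 3. Chance flags about 1 group in 20 where genes are not selected. Apart from Trp53 and Smarca2, the 74 genes were named by p or fold in these data, so that share is no yardstick. Adh1, Rasa4 and Fga were named for large folds that a high KP library raises. KP replicate 3 held 4 of the 7 genes. Rasa4 stood at 79.8 CPM there and at 7.81 to 18.9 CPM in the other KP libraries. Fga stood at 24.6 CPM there, against 1.26 to 3.25 CPM, and Ahsg at 15.6 CPM, against 0.315 to 1.19 CPM. Mpi stood at 72.4 CPM there, against 53.1 to 54.0 CPM. In KP replicate 4, Upk1b, a urothelial plaque protein also found on mesothelium, stood at 20.5 CPM, against 0 to 1.78 CPM, and Fbxo32, a muscle ubiquitin ligase, at 48.1 CPM, against 37.3 to 38.5 CPM. In KP replicate 1, Adh1 stood at 45.8 CPM, against 0.422 to 1.96 CPM. Mpi and Fbxo32 were named among genes whose KPS-HET and KP libraries do not overlap. Leaving out the library that stood apart cannot change that, so it is no check.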

How the results depend on the processing

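No paired analysis was possible because the labels carry no replicate numbers. Between KPS-HET and KP every alternative called 0 genes, except DESeq2, which called 2. With the title number range as a block 1507 genes (9.62%) were below an unadjusted p of 0.05, and without 1 library 490 (KP replicate 4) to 967 (KP replicate 2) were. DESeq2 called 2269 genes between KPS and KP and 976 between KPS and KPS-HET. Without 1 library these counts ran from 505 (KPS replicate 3) to 956 (KPS-HET replicate 2) and from 1 (KPS-HET replicate 1) to 150 (KP replicate 3), and a macrophage covariate, added later, gave 649 for KPS against KP. Of 1470 alternative values for 74 named genes, 7 changed sign. Smarca2 was 0.001218 within the 67 libraries and -0.28 to 0.10 without 1 library. Ear2 ran from -0.22 to 3.47, Mpeg1 from -0.29 to 3.29 and Pmaip1 from -0.12 to 1.82, and the cause was not tested. Of 117 list medians under other library totals or without 1 KPS-HET library, 22 moved by more than their spread between libraries, and 22 of 39 lists changed the sign of their median without 1 KPS-HET library. The club median ran from -0.25 to 0.33, the mesenchymal from -0.48 to 0.41 and the WNT from -0.32 to 0.41. With 1 KPS-HET library, that library is assumed to vary like the other groups. Genes under 10 CPM had the widest intervals.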
